A study of Mus musculus with 17 samples.

Results

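Transcript levels of 10 imprinted genes known for their part in fetal growth were followed across livers and liver tumors of mice lacking NgBR in the liver. The members were H19, Igf2, Dlk1, Meg3, Rian, Mirg, Peg3, Mest, Plagl1 and Cdkn1c, matched by gene symbol. All 10 were found among the 24233 genes of the Western diet (WD) table and 8 among the 19151 genes of the high-fat diet (HFD) table; Dlk1 and Mirg were not analysed under HFD. H19 was chosen by its level in the tumors of these same libraries, and the others were selected as imprinted genes with those results known. The tumor values of all 10 are therefore given as a description, with no p-value, and how many of them the fit over all genes called in tumors supports nothing about them. The comparisons between N-LKO and WT livers were not used to choose them and were tested.

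The mice carried a loxP-flanked Nus1 gene, which encodes NgBR, and albumin-Cre, which acts in hepatocytes. The paper counts endothelial, stellate and Kupffer cells among the liver cells that express NgBR. This liver-specific knockout is called N-LKO, and mice without it are called WT. The strain background was C57BL/6. After a chow period, mice received HFD or WD, a high-fat diet with added cholesterol, for 16 weeks. Under HFD the groups were WT liver (n = 4) and N-LKO liver (n = 4); under WD they were WT liver, N-LKO liver and tumor of N-LKO mice (n = 3 each). The labels number the samples of a group as biological replicates, and do not say whether a tumor and an N-LKO liver came from the same animal. Whole-tissue RNA was sequenced, so fewer cells of a type and less RNA per cell cannot be told apart.

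An imprinted gene is read from 1 parental copy, set by DNA methylation at a control region that was laid down in egg or sperm. Imprinted genes lie in clusters, where paternally expressed genes often promote and maternally expressed genes often restrain growth before birth. The liver expresses several of them, H19 and Igf2 above all, at high levels in the fetus and turns them down after birth. Return of such transcripts is well known in liver cancer.

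Positions are on GRCm38. H19 (ENSMUSG00000000031.16, chr7:142575529-142578143, minus strand), a maternally expressed long noncoding RNA, and Igf2 (ENSMUSG00000048583.16, chr7:142650766-142666816, minus strand), a paternally expressed growth factor, are neighbors that share enhancers and a control region. Igf2 overlaps Gm49394, an automatically named gene on the same strand. Dlk1 (chr12:109452823-109463336), a paternally expressed membrane protein of liver progenitors, lies in 1 cluster with the maternally expressed noncoding RNAs Meg3 (chr12:109541001-109571726), Rian (chr12:109603940-109661716) and Mirg (chr12:109729764-109749460), all on the plus strand. Cdkn1c (chr7:143458339-143461050, minus strand), which encodes the cell-cycle inhibitor p57, is maternally expressed and belongs to the Kcnq1ot1 cluster. Peg3 (chr7:6703892-6730431, minus strand) and Plagl1 (chr10:13060504-13131694, plus strand) encode paternally expressed zinc-finger proteins. Mest (chr6:30723547-30748465, plus strand) encodes a paternally expressed protein of the hydrolase fold. Its end overlaps the oppositely oriented Copg2, and the use of strand in counting was not stated.

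The noncoding members are known in part for the small RNAs cut from them. RefSeq places 23 miRNA genes with 41 mature miRNAs inside 6 members. H19 carries 2 in an exon, Igf2 2 in an intron, Meg3 3 in exons, Rian 6 in introns, Mest 2 in an intron, and Mirg 8 in exons and 18 in introns. The levels of the miRNAs were not analysed here. The mature sequences below belong to the host transcripts that the tumor results turn on, with Mest for comparison, and the seed (bases 2 to 8) is in capitals:
miR-675-5p: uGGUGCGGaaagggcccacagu
miR-675-3p: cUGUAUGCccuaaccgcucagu
miR-483-5p: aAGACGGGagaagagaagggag
miR-483-3p: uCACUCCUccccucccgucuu
miR-770-3p: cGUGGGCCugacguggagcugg
miR-370-3p: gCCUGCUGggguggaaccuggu
miR-134-5p: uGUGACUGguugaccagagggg
miR-154-5p: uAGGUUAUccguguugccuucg
miR-453: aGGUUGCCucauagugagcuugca
miR-496a-5p: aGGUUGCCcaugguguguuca
miR-410-3p: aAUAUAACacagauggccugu
miR-335-5p: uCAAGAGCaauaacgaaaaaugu

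miR-675 is the product of H19, at chr7:142577112-142577133 for the 5p arm and chr7:142577078-142577099 for the 3p arm on the minus strand. miR-483 comes from Igf2, miR-770 from Meg3, miR-370 from Rian, and miR-335 from Mest. miR-134, miR-154, miR-453, miR-496a and miR-410 lie in Mirg. The 41 miRNAs had 40 distinct seeds, and the only seed shared was GGUUGCC, of miR-453 and miR-496a-5p.

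RefSeq promoter entries (GRCm38.p6) were found for 8 members, in 14 entries, with none matched for H19 and Cdkn1c. The 250 bases before the start are shown for Meg3, whose transcript rose above the livers in the tumors, and for Peg3, with matches to TGACGTCA (the palindrome known as the cAMP response element) and to TATAAA on either strand in capitals. Both motifs were picked after these sequences had been read.
Meg3, chr12:109540746-109540995, plus strand: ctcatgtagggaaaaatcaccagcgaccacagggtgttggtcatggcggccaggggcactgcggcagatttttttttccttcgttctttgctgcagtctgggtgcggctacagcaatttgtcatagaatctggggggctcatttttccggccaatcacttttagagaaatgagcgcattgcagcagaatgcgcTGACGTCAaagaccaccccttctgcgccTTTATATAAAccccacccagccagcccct
Peg3, chr7:6730420-6730669, minus strand: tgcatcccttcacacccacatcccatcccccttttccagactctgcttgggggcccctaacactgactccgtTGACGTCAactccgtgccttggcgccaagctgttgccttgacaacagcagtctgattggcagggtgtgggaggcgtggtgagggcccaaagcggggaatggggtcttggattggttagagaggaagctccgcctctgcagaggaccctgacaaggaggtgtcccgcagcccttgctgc

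The Meg3 entry held TGACGTCA, ending 49 bases before the start, and TATAAA, ending 19 bases before it and overlapping its reverse complement. The Peg3 entry held TGACGTCA alone, ending 170 bases before the start. Neither motif was matched in the other 12 member entries. Of all 32851 promoter windows of the same length, 1.55% held TGACGTCA and 12.4% held TATAAA. Meg3 had 10 CG pairs in this window and Peg3 had 8, against a median of 6 over all windows; 37.8% of windows had at least as many as Meg3 and 43.0% at least as many as Peg3. A match is a description of letters and no evidence of binding.

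Libraries held 9096117 to 12215778 counts under HFD and 15494728 to 20200596 under WD. Levels are given as CPM, counts scaled to the TMM-corrected library size, and 1 count in a WD library was 0.0445 to 0.0686 CPM, so levels below 1 CPM rest on few counts. Intervals and floors cover counting error only. Hepatocyte markers (Alb, Apoa1, Ttr, Cps1, Hnf4a and Apob) summed to between 46166 and 79517 CPM in every library, tumors included. Of these 6, Apob was called lower in N-LKO livers under HFD (log2 fold change -0.52, adjusted p = 0.0220), and Ttr (-0.79, adjusted p = 0.0244) and Hnf4a (-0.75, adjusted p = 0.0266) were called lower in tumor than in WT liver, where all 6 were below 0 with a median of -0.65. Nus1, the deleted gene, was at 82.5 to 96.2 CPM in the WT group and 29.4 to 38.0 CPM in the N-LKO group under HFD, a log2 fold change of -1.33 (SE 0.10, adjusted p = 0.000194, edgeR). Under WD it was at 88.2 to 98.9 CPM in WT livers, 41.7 to 51.1 CPM in N-LKO livers and 35.8 ± 7.58 CPM (SD, n = 3) in tumors, and the fall in N-LKO livers, without overlap, did not pass (log2 fold change -1.02, adjusted p = 0.151) but passed with DESeq2 (adjusted p = 2.38e-05) and with only both liver groups fitted. WT liver replicate 2 under WD had the lowest TMM factor of the WD libraries, 0.806.

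In adult liver the 10 genes were low. Compared per kilobase of exon, the highest in WT livers under WD were Cdkn1c at 0.909 ± 0.339 CPM per kilobase (SD, n = 3), Peg3 at 0.890 ± 0.129 and Mest at 0.731 ± 0.437, which did not differ beyond their spread. Plagl1 followed at 0.424 ± 0.142, H19 at 0.356 ± 0.241 and Igf2 at 0.129 ± 0.0604. The genes of the chr12 cluster were lowest, with Dlk1, Meg3 and Rian below 0.02 and Mirg at 0 counts in all 3 WT libraries, which allows up to 0.206 CPM in the shallowest of them. In WT livers under HFD the order was similar, led by Peg3 at 0.696 ± 0.180 CPM per kilobase (n = 4) and Cdkn1c at 0.587 ± 0.279, again within their spread.

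Under HFD, none of the members was called in N-LKO against WT livers. Of the 8 genes found, 4 (Peg3, Mest, Plagl1 and Cdkn1c) passed the filter on low counts, and 0 of 4 passed an adjusted p of 0.05, beside 4.87% of all 13460 genes tested (655). At an unadjusted p of 0.05 in the edgeR fit, 1 of the 4 passed, beside 3053 of the 13460 genes tested. DESeq2 and limma-voom also called 0 of the members. The median log2 fold change of the 4 was 0.05, against -0.01 over all genes.

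Peg3 was the member nearest to a change under HFD. It was at 6.25, 9.27, 12.1 and 9.47 CPM in the WT livers and at 6.88, 7.25, 6.53 and 5.20 CPM in the N-LKO livers. WT replicate 1 lay among the N-LKO livers, and the other 3 WT livers lay above all of them. The log2 fold change was -0.52 (SE 0.19, adjusted p = 0.136), and without WT replicate 1 it was -0.67 with an adjusted p of 0.0476.

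Cdkn1c, the growth-restraining member, was at 1.98, 0.669, 1.22 and 0.917 CPM in WT and 1.82, 2.47, 1.52 and 1.84 CPM in N-LKO livers on this diet (a log2 fold change of 0.69 with an SE of 0.34 and an adjusted p of 0.250). WT replicate 1 again overlapped the N-LKO group, whose 4 livers otherwise lay above WT. Mest and Plagl1 overlapped widely, with log2 fold changes of -0.16 (SE 0.45) and 0.26 (SE 0.39).

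The other members found, Igf2 and the noncoding H19, Meg3 and Rian, had at most 22 counts in any library under HFD. H19 had 6, 2, 0 and 1 counts in WT and 9, 3, 0 and 22 counts in N-LKO livers, so that 1 N-LKO liver of 4 held most of the signal. Igf2 had 0 to 6 counts in every library of both groups. Meg3 was at 0.625, 0.478, 0.667 and 0.407 CPM in WT and 1.82, 1.07, 0.870 and 0.720 CPM in N-LKO livers. All N-LKO livers lay above all WT livers for Meg3, at 8 to 22 counts against 4 to 6. The share of all genes that separate the HFD groups in this way was not counted, so nothing is read from it. With the filter lifted the Meg3 difference did not pass (log2 fold change 1.06, SE 0.43, adjusted p = 0.198). Rian, its neighbor, had 0 to 3 counts in WT and 2 to 14 counts in N-LKO livers, which overlap (without the filter, log2 fold change 1.84, SE 0.76, adjusted p = 0.209).

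**Figure D1:**
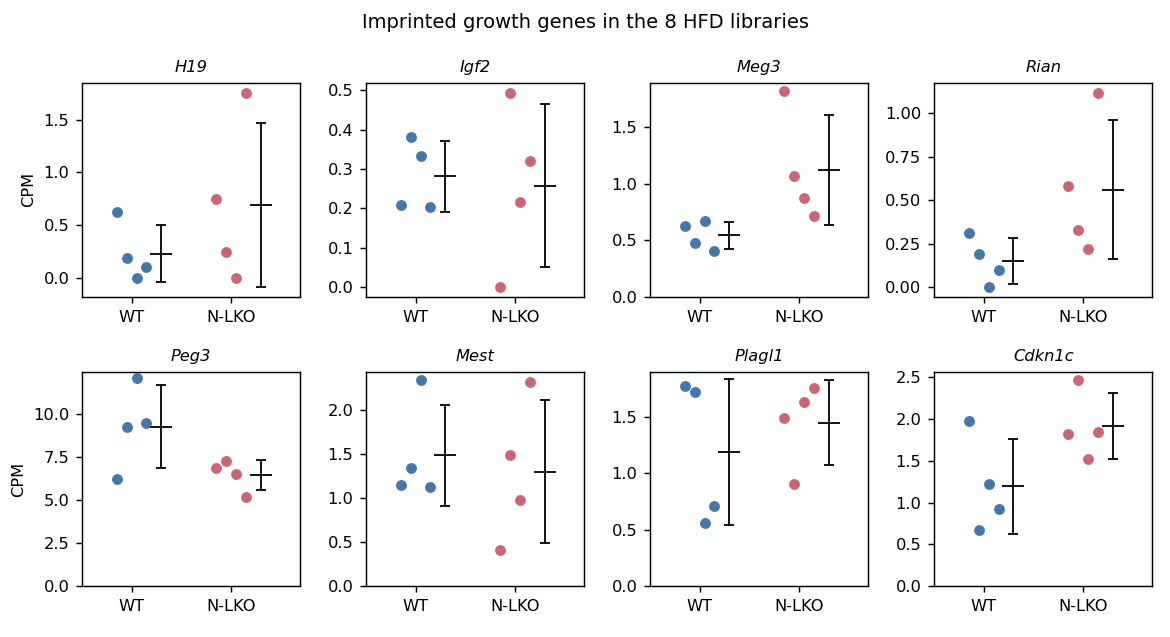
CPM of the 8 members found under HFD, with 1 panel per gene. Points are the 4 WT and 4 N-LKO livers and the bar beside them is the mean with its SD. Meg3 points lie at 0.720 to 1.82 CPM in N-LKO and 0.407 to 0.667 CPM in WT livers, a difference that did not pass. For H19 and Rian, N-LKO replicate 4 is the highest point.

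Under WD, the members were low in livers of both genotypes, and no difference between them passed. Of the 10 members, 8 passed the filter, Dlk1 and Mirg not, and 0 of 8 were called, beside 0% of the 17873 genes tested. Over all genes edgeR called 0, with 2213 at an unadjusted p under 0.05, while DESeq2 called 100 and limma-voom 0. No member was at an unadjusted p under 0.05 in the edgeR fit or called by either tool. DESeq2 gave H19 as NA between tumor and N-LKO liver, from a fit shared by all WD comparisons. A missing value counts here as not called. The median log2 fold change of the 8 was 0.24, against 0.01 over all genes, and 7 of the 8 were above 0. With only both liver groups fitted, 6 members passed the filter and 0 were called, so some of the 8 passed it only with the tumors included. Nothing is read from the median or the counts of the 8.

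H19 was at 1.51, 0.339 and 0.775 CPM in WT and 4.60, 1.33 and 3.08 CPM in N-LKO livers under WD, which is 22, 5 and 13 counts against 94, 28 and 58. Only WT replicate 1 reached into the N-LKO range. The log2 fold change was 1.78 (SE 1.26, adjusted p = 0.556), and it did not pass with only both liver groups fitted. Igf2 was at 0.481, 0.610 and 1.13 CPM in WT and 0.294, 1.19 and 0.798 CPM in N-LKO livers. The Igf2 ranges lie over each other. Its log2 fold change of 0.01 had an SE of 2.52, as fitted too wide to exclude a change of several fold either way. That fit shared 1 estimate of spread with the tumors, where the SD of log2 CPM for Igf2 was 5.13. In WT and N-LKO livers the SD was 0.56 and 0.87, so the SE does not describe the livers alone. The WD standard errors of H19, Meg3 and Rian come from the same shared fit.

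Peg3 was at 9.89, 12.8 and 12.9 CPM in WT and 11.4, 23.97 and 13.3 CPM in N-LKO livers (log2 fold change 0.45, SE 0.53, adjusted p = 0.727). N-LKO replicate 2 stood above the other 5 livers, which overlapped. The log2 fold changes of the remaining members were 0.76 for Rian (SE 1.35), 0.29 for Meg3 (SE 1.36), 0.20 for Mest (SE 0.53), 0.16 for Plagl1 (SE 0.39) and -0.13 for Cdkn1c (SE 0.36), with adjusted p-values from 0.825 to 0.940 (edgeR). Mirg had 0 counts in all WT livers and 2, 3 and 1 counts in N-LKO livers, all at or under 3 counts, so no fold is given. Dlk1 had 0 to 4 counts in every liver.

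**Figure D2:**
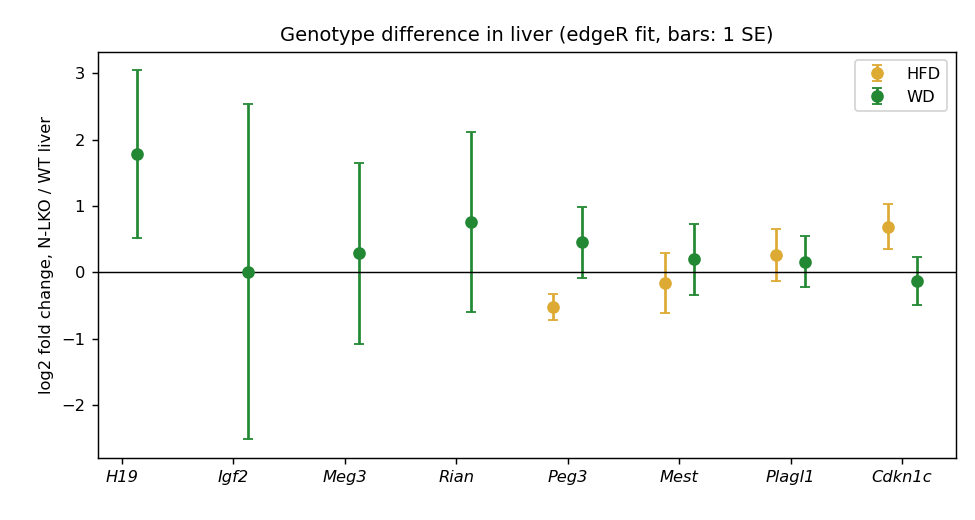
Log2 fold change of N-LKO over WT liver with 1 SE from the edgeR fits, for the members that passed the filter under HFD (4 genes) or WD (8 genes). Every bar under WD crosses 0 except that of H19 (1.78, SE 1.26), and no point passed the test. The filter and fit under WD also held the tumors, so the WD bars take in their spread.

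A diet-by-genotype interaction term, fitted on the 14 livers together, tested whether the genotype difference changed with diet. Of the members, 6 could be fitted, and 0 of 6 passed, beside 1.62% of the 15850 genes tested (256). Peg3, lower in N-LKO livers under HFD and higher under WD on average, had the largest interaction for its error. Its log2 difference was 0.99 (SE 0.35, unadjusted p = 0.0122, adjusted p = 0.134, edgeR). It alone of the 6 had an unadjusted p under 0.05 in the edgeR fit, beside 3171 of the 15850 genes tested. The interactions of Cdkn1c (-0.80, SE 0.52), Meg3 (-0.74, SE 0.83), Mest (0.37, SE 0.69), H19 (0.18, SE 1.47) and Plagl1 (-0.08, SE 0.50) had adjusted p-values from 0.408 to 0.964. Diet cannot be told apart from the sequencing of each diet's libraries as a set.

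In the tumors, the members split by cluster and by tumor. H19 was far above liver in all 3 tumors, Igf2 in 1 of them, the chr12 noncoding RNAs chiefly in another, and Plagl1 and Cdkn1c in none. The members called were 1 of 8 against N-LKO liver (H19), beside 0.498% of genes, and 4 of 8 against WT liver (H19, Igf2, Meg3 and Rian), beside 14.9% of genes; as the members were selected on these libraries, nothing is read from those counts. The same holds for the 3 of 8 members that every tumor held above every WD liver (H19, Meg3 and Rian), beside 8.14% of genes.

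H19 was at 686 CPM in tumor replicate 1, 11043 CPM in replicate 2 and 489 CPM in replicate 3. The highest liver was at 4.60 CPM, so the tumors stood 149.2-fold, 2401-fold and 106-fold above it. As estimated counts these were 13660, 248224 and 9371. In replicate 2, H19 took 1.27% of all counts (exact 95% binomial interval 1.26% to 1.27%) and ranked 7th among genes by count, whereas in N-LKO livers its highest share was 0.000465%. In replicates 1 and 3 it took 0.0730% and 0.0490% of counts and ranked 134th and 209th. The log2 fold change was 10.40 (SE 1.47) against N-LKO liver and 12.18 (SE 1.60) against WT liver. Without tumor replicate 2 these were 7.60 and 9.35.

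Igf2, which shares its enhancers with H19, did not follow it in every tumor. It was at 1.81, 334 and 0.261 CPM in tumor replicates 1, 2 and 3, against 0.294 to 1.19 CPM in the 6 WD livers. Only replicate 2 stood well above liver, 281-fold over the highest. Replicate 3, at 5 counts, was next to the lowest liver, which had 6. The fitted log2 fold change of 7.19 (SE 2.09) against N-LKO liver fell to 0.43 without replicate 2. The same happened against WT liver, where 7.20 (SE 2.13) became 0.43. The ratio of H19 to Igf2 counts was 379 in tumor replicate 1, 33.1 in replicate 2 and 1874 in replicate 3, against 0.556 to 15.7 in the livers. By these ratios H19 exceeded Igf2 by more in every tumor than in any liver, and by least in the tumor with the most of both. The highest liver ratio rests on 94 counts of H19 and 6 of Igf2, and that of tumor replicate 3 on 5 of Igf2. Such ratios are imprecise, and their order was not tested.

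Nctc1, a noncoding gene on the far side of H19 from Igf2 (chr7:142544609-142558596, minus strand), followed the same tumor. It had 10, 263 and 0 counts in tumor replicates 1, 2 and 3 and at most 1 count in any WD liver, and it did not pass the filter. In replicate 2 its 11.7 CPM was at least 56.8-fold higher than the level that 3 counts make in a WD liver. The other 4 neighbors named for this cluster (Igf2os, Ins2 and the genes of miR-675 and miR-483) were not analysed here.

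On chr12, tumor replicate 1 was highest for each noncoding member. Meg3 was at 11.9, 1.47 and 0.678 CPM in tumor replicates 1, 2 and 3, against 0.0596 to 0.475 CPM in the 6 WD livers. Rian was at 14.6, 2.85 and 0.678 CPM, against 0.136 to 0.391 CPM. Mirg had 29, 8 and 1 counts, against 0 to 3 counts in the livers. Thus Meg3 stood 25.1-fold, 3.09-fold and 1.43-fold over its highest liver, Rian 37.4-fold, 7.27-fold and 1.73-fold, and Mirg in replicate 1 was at least 7.08-fold higher than 3 counts in a WT liver. Replicate 3 was the lowest tumor for all 3 genes, with 13 counts each of Meg3 and Rian.

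The fitted log2 fold changes carried this spread. Meg3 had 3.95 (SE 1.06) against N-LKO and 4.24 (SE 1.13) against WT liver, and 1.84 and 2.13 without tumor replicate 1. Rian had 4.31 (SE 0.97) and 5.07 (SE 1.09), and 2.55 and 3.31 without that tumor. The ratio of Rian to Meg3 counts stayed between 1.00 and 1.96 in the 3 tumors, so these neighbors moved nearly in step. Dlk1, the protein-coding member of the cluster, did not share in this. It had 1, 5 and 0 counts in the tumors and 0 to 4 counts in the livers, so that no difference was detectable at this depth. Rtl1, a paternally expressed retrotransposon-derived gene lying antisense between Meg3 and Rian, had 24, 2 and 0 counts in tumor replicates 1, 2 and 3 and at most 1 count in any liver. Its level in replicate 1 was at least 5.86-fold higher than 3 counts in a WT liver.

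The remaining members stayed nearer to their liver levels. Peg3 was at 12.9, 69.0 and 21.5 CPM in tumor replicates 1, 2 and 3, against 9.89 to 23.97 CPM in the livers, and only replicate 2 lay above them. Mest was at 5.23, 12.2 and 3.86 CPM, against 1.02 to 4.41 CPM, with replicate 2 at 2.77-fold of the highest liver. Without tumor replicate 2, the log2 fold change of Peg3 against N-LKO liver went from 1.09 (SE 0.52) to 0.08 and that of Mest from 1.10 (SE 0.51) to 0.44. Plagl1 was at 3.72, 4.45 and 1.51 CPM, around the 2.03 to 4.04 CPM of the livers. Cdkn1c was at 1.26, 0.979 and 1.41 CPM, within or below the range of the livers (1.29 to 2.62 CPM), with log2 fold changes of -0.49 (SE 0.36) against N-LKO and -0.62 (SE 0.36) against WT liver.

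**Figure D3:**
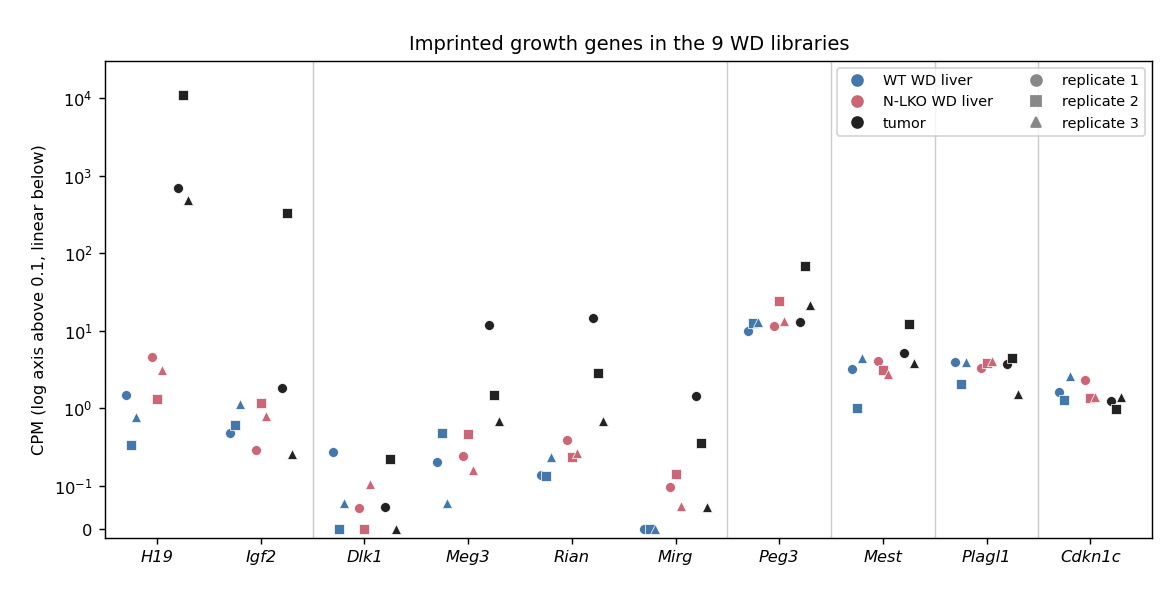
CPM of the 10 members in the 9 WD libraries, with color for the group and marker shape for the replicate; the axis is logarithmic above 0.1 CPM and linear below. H19 sits at 489 CPM or more in all 3 tumors and at 4.60 CPM or less in all 6 livers, Igf2 is high in tumor replicate 2 alone (334 CPM), and Meg3, Rian and Mirg are highest in tumor replicate 1.

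Taken tumor by tumor, each held its own set of raised members. At 4 times the highest WD liver on the log2 CPM scale (with a prior count of 2), replicate 1 had 3 of the 8 tested members (H19, Meg3 and Rian), beside 0.325% of all genes tested. Replicate 2 had 3 of 8 (H19, Igf2 and Rian), beside 1.17%. Replicate 3 had 1 of 8 (H19), beside 0.778%. Of the 38 other imprinted-cluster genes tested, 0 reached this level in replicates 1 and 3, and 1, Peg10, did so in replicate 2. These are values of single samples with no replicate, and the members had been chosen with them known.

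**Figure D4:**
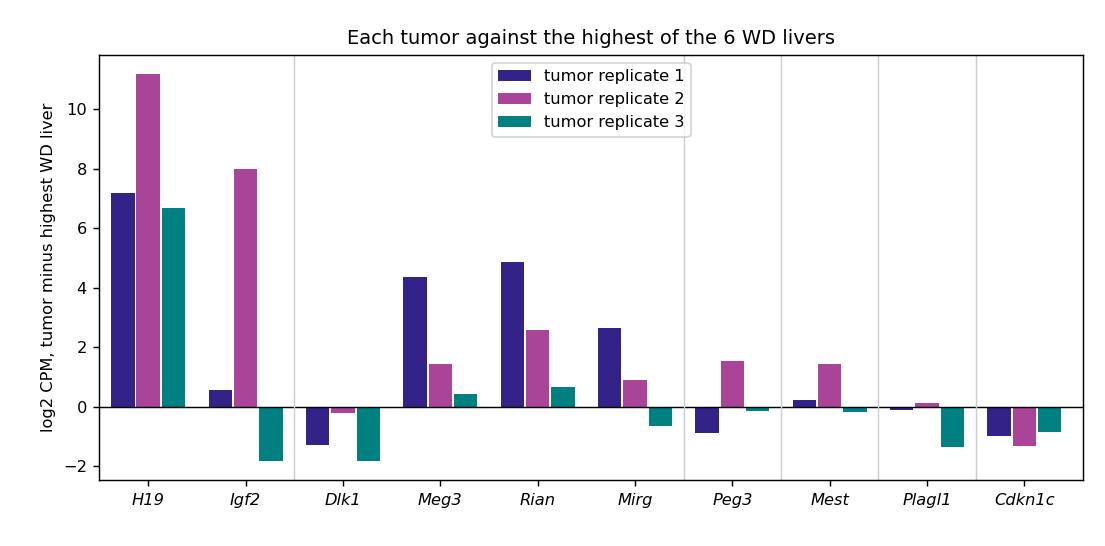
Log2 CPM (prior count of 2) of each of the 3 tumors minus that of the highest of the 6 WD livers, for the 10 members grouped by cluster. Replicate 2 leads for H19 (11.20), Igf2 (8.01), Peg3 (1.52) and Mest (1.45), replicate 1 leads for Meg3 (4.37), Rian (4.88) and Mirg (2.65), and Cdkn1c is below 0 in all 3 tumors.

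The genes around Cdkn1c were tested as well. Of the 12 other genes in its cluster, 9 were tested under WD, and 1 passed between tumor and WT liver (beside 14.9% of all genes) and 0 between tumor and N-LKO liver (beside 0.498%). In the latter comparison Dhcr7 alone of the 9 had an unadjusted p under 0.05 (0.00309, adjusted p = 0.101, edgeR), beside 3267 of 17873 genes. Dhcr7 was called with DESeq2 but not with limma-voom. The gene that passed was Kcnq1ot1, the paternally expressed noncoding RNA that silences its neighbors, at 70.5 to 129 CPM in WT livers, 168 ± 7.76 CPM (SD, n = 3) in N-LKO livers and 208 to 262 CPM in tumors. The 3 groups did not overlap, and the log2 fold change of tumor over WT liver was 1.16 (SE 0.21, adjusted p = 0.0114, edgeR). The step from WT to N-LKO liver did not pass (0.72, adjusted p = 0.353). Phlda2, a maternally expressed gene that restrains placental growth and lies next to Slc22a18, had at most 2 counts in any liver and 3, 82 and 35 counts in tumor replicates 1, 2 and 3. It did not pass the filter, and its level in replicates 2 and 3 was at least 17.7-fold and 8.86-fold higher than 3 counts in a WD liver. Slc22a18, a maternally expressed transporter gene, passed in the interaction alone (-0.62, SE 0.15, adjusted p = 0.0474), and the call was lost in 16 of 21 alternatives, with an adjusted p up to 0.154.

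Imprinted genes outside the members' clusters included 5 of 24 tested that passed between tumor and WT liver, 4 higher and 1 lower. With the other genes of the members' clusters, 6 of 38 passed (15.8%, beside 14.9% of all genes), 5 of them higher and 1 lower. Between tumor and N-LKO liver 1 of these 38 passed, between N-LKO and WT liver 0 of 38 under WD and 1 of 31 under HFD, and in the interaction 1 of 35. Peg10, a retrotransposon-derived gene needed in the placenta, was at 8.14 to 20.1 CPM in tumors, 4.36 to 4.79 CPM in N-LKO and 2.75 to 3.12 CPM in WT livers. The groups did not overlap, and it passed against WT (log2 fold change 2.43, adjusted p = 0.00571) and N-LKO liver (1.78, adjusted p = 0.0377), the latter call being lost in 11 of 17 alternatives with an adjusted p up to 0.213. Sgce, which encodes a sarcoglycan and starts beside Peg10 on the opposite strand, passed in tumor over WT liver (1.95, adjusted p = 0.00749).

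Sgce was also the imprinted gene that passed under HFD, at 1.78 to 2.40 CPM in WT and 3.28 to 4.57 CPM in N-LKO livers (log2 fold change 0.96, SE 0.21, adjusted p = 0.0277). That call was lost in 6 of 15 alternatives, with an adjusted p up to 0.0839. Grb10, an adaptor that restrains insulin and IGF signaling, rose in tumors over WT liver (1.11, adjusted p = 0.00787). The calls of Nnat (1.00, adjusted p = 0.0381), a small membrane protein gene, and Mcts2 (-1.07, adjusted p = 0.0383), a retrogene, were lost in 11 and 10 of 17 alternatives, with adjusted p-values up to 0.115 and 0.130. Airn, the noncoding RNA that silences Igf2r, was at 1.22 to 3.22 CPM in WT and 5.04 to 9.02 CPM in N-LKO livers under WD, which did not pass (1.76, unadjusted p = 0.000511, adjusted p = 0.269).

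**Figure D5:**
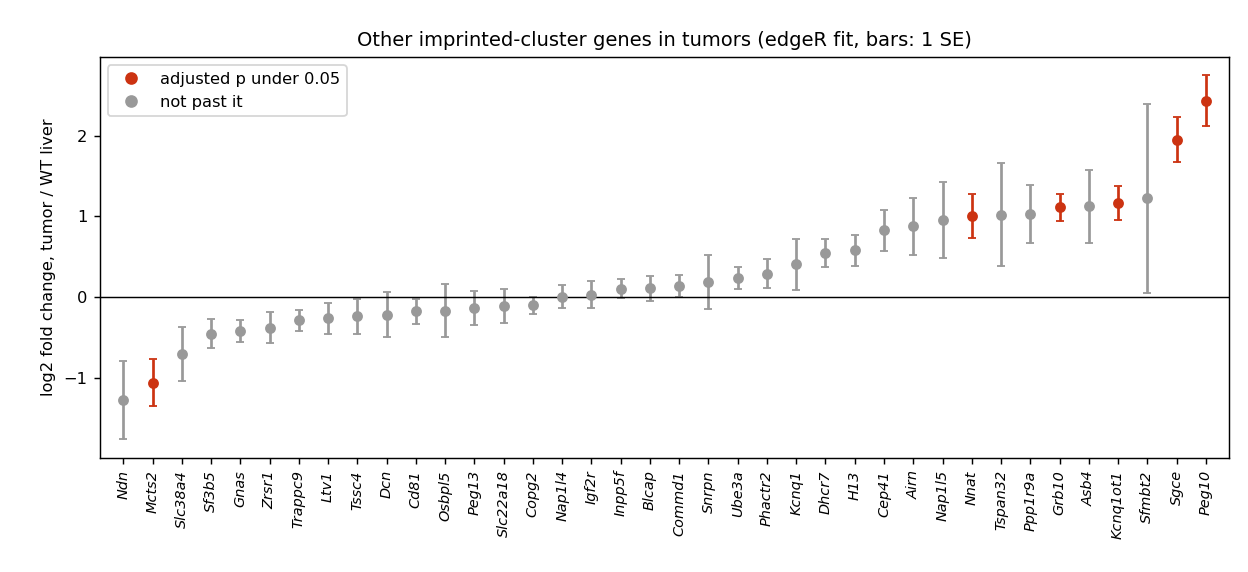
Log2 fold change of tumor over WT liver under WD with 1 SE, for the 38 other genes of the imprinted clusters that passed the filter, in order of size. Red marks the 6 genes past an adjusted p of 0.05: Mcts2 below 0, and Nnat, Grb10, Kcnq1ot1, Sgce and Peg10 above it.

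Genes of IGF signaling were followed beside Igf2. Of the 9 on the list of IGF receptors, kin and mRNA binders, 8 were tested under WD and 3 passed in tumor over WT liver, 2 higher and 1 lower, beside 14.9% of all genes. Igf2r, the receptor that clears IGF2 and is itself imprinted, was at 118 to 130 CPM in WT livers, 112 to 150 CPM in N-LKO livers and 101 to 142 CPM in tumors (tumor over WT, log2 fold change 0.03, SE 0.17, adjusted p = 0.924). Igf2bp3, an RNA-binding protein of fetal tissue named for Igf2 mRNA, was at 9.50 to 40.3 CPM in tumors and 1.61 CPM or less in livers. It rose by log2 4.95 (adjusted p = 0.00345) over WT and 4.08 (adjusted p = 0.0150) over N-LKO liver, the latter lost in 4 of 17 alternatives with an adjusted p up to 0.125. Igf2bp2 rose over WT liver (1.64, adjusted p = 0.0187) and Igf1, the postnatal growth factor made by liver, fell (-1.42, adjusted p = 0.0154); each was lost in 2 of 17 alternatives, with adjusted p-values up to 0.0676 and 0.0591.

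Fetal liver genes on their own list behaved unevenly. Of 6, 4 were tested under WD and 2 rose in tumor over WT liver, beside 14.9% of all genes. Afp, the fetal serum protein, was at 10.1 to 15.8 CPM in tumors, 1.14 to 2.92 CPM in N-LKO and 0.775 to 1.10 CPM in WT livers, and rose by log2 3.82 (adjusted p = 0.00142) over WT and 2.71 (adjusted p = 0.0150) over N-LKO liver, the latter lost in 2 of 17 alternatives with an adjusted p up to 0.104. Unlike H19, it was of similar size in the 3 tumors. Gpc3, a growth-restraining surface proteoglycan, was at 30.7 CPM in tumor replicate 1 and 2.36 and 0.834 CPM in the other two, and did not pass (2.78, adjusted p = 0.107). Sall4, a fetal transcription factor, was at 1.66, 0.623 and 10.6 CPM and passed over WT liver (5.23, adjusted p = 0.0337), a call lost in 8 of 17 alternatives with an adjusted p up to 0.124. The fetal genes thus had their highest level in different tumors, Gpc3 where Meg3 and Rian were high and Sall4 where Igf2 was lowest. Under HFD, Cd24a, a surface protein of progenitor cells, was the 1 of 2 tested that rose, beside 4.87% of all genes (1.37, adjusted p = 0.0241), lost in 4 of 15 alternatives with an adjusted p up to 0.0706.

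The known repressors of fetal liver genes did not pass in any comparison, except Zbtb20 under HFD with a transcript length offset (adjusted p = 0.0371). Zhx2, which represses Afp and H19 after birth, was at 26.2 to 33.1 CPM in tumors and 34.3 to 45.6 CPM in WT livers (log2 fold change -0.44, SE 0.16, adjusted p = 0.0871), and Zbtb20, which represses Afp, had -0.24 (SE 0.17, adjusted p = 0.339). Of the 10 genes that keep imprints, 9 were tested under WD and 3 passed in tumor over WT liver, beside 14.9% of all genes. Zfp57, which guards methylated control regions, rose (2.56, adjusted p = 0.0341), as did Uhrf1, a cofactor of maintenance methylation (1.54, adjusted p = 0.0214), and Zfp445, a second guard of imprints, fell (-1.31, adjusted p = 0.0249). These 3 calls were lost in 10, 3 and 4 of 17 alternatives, with adjusted p-values up to 0.114, 0.0669 and 0.0904. DNA methylation was not analysed here.

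The genes whose pattern was most like that of H19 were sought among 10813 genes of at least 5 CPM on average, by Pearson correlation of log2 CPM over the 9 WD libraries. Automatically named genes were then left out, and the first 5 of the others are given. They were Gimap6 (r = 0.990), an immune GTPase gene, Tpp2 (0.988), a peptidase gene, Klhl13 (0.987), an adaptor of a ubiquitin ligase, Slc1a1 (0.980), a glutamate transporter gene, and Casp1 (0.980), an inflammasome protease gene. Tumors and livers form separate clusters, so r mostly marks genes with the same order of tumor 2, tumors 1 and 3, and livers. Slc1a1 was the nearest in size, at 4.62, 31.01 and 11.5 CPM in tumor replicates 1, 2 and 3 and at most 0.275 CPM in any liver. Gimap6 moved far less, from 9.90 to 11.9 CPM in livers to 14.7 to 17.3 CPM in tumors. No other member was among the 5, but members under 5 CPM on average could not appear. Among these were Dlk1, Meg3, Mirg, Plagl1 and Cdkn1c, so nothing is read from their absence.

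Summed marker levels of some other cell types differed between the groups in which H19 was high and low. The 5 cholangiocyte markers summed to 195 to 523 CPM in tumors, 115 to 151 CPM in N-LKO and 17.2 to 69.6 CPM in WT livers under WD, but that sum was carried by Spp1 and Sox9. Krt19, Krt7 and Epcam were at 24, 13 and 67 counts in tumor replicate 1, at 4, 11 and 2 counts in replicate 2 and at 1, 1 and 2 counts in replicate 3, against 11 to 20, 12 to 22 and 40 to 60 counts in N-LKO livers, and the median of the 5 between tumor and N-LKO liver was a log2 fold change of -0.65, with 2 of 5 above 0. The 5 markers of dividing cells summed to 39.9 to 89.6 CPM in tumors, 23.9 to 39.3 CPM in N-LKO and 5.83 to 20.2 CPM in WT livers. The 6 macrophage markers were lower in tumors (136 to 375 CPM) than in N-LKO (381 to 447 CPM) and WT livers (425 to 625 CPM). Summed levels of the 8 fibroblast and stellate markers (404 to 727 CPM in tumors, 584 to 741 in N-LKO livers, 295 to 611 in WT livers) and the 6 endothelial markers (294 to 339, 251 to 299 and 285 to 309 CPM) overlapped between groups. Single markers went both ways between tumor and WT liver. Lum was called higher and Reln lower, 2 of 8 fibroblast and stellate markers. Pecam1 and Cdh5 were called higher and Clec4g lower, 3 of 6 endothelial markers, beside 14.9% of all genes. The 6 lymphocyte markers were at 4.80 to 8.01 CPM in tumors, 4.65 to 6.36 in N-LKO and 2.17 to 4.06 in WT livers. No marker was at 0 in all libraries of a group. The part of these cells in the tumor and liver levels of the members was not tested.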

How the data were processed

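RNA-seq of 17 samples was used, 8 under HFD and 9 under WD, with groups and replicate numbers from the sample titles; 0 columns were left unassigned. Per the study's methods, total RNA was ribosome-depleted and single-end reads were aligned with TopHat2; the submitters' processing notes name STAR, Partek and mm9, and the labels a small RNA library kit. The deposited tables hold estimated counts, which the authors made with expectation maximization in Partek and did not normalize. Gene positions in the tables are those of GRCm38: 99.0% of genes matched by symbol had the GENCODE M21 position. The aligner actually used is thus unsure, and its version is not given in the sources used here. Strand use in counting was not stated, so antisense partners cannot be told apart.

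Counts were rounded and tested with edgeR 4.0.16 (R 4.3.3; quasi-likelihood F test, TMM, filterByExpr, Benjamini-Hochberg adjusted p under 0.05 over all genes tested). One fit held the HFD livers, another all 3 WD groups, and the interaction used the 14 livers. CPM used TMM-scaled library sizes. The SE of a log2 fold change is approximate. A fold against libraries of at most 3 counts is a lower bound, set per library at 3 counts. Scripts were tested on simulated data. Within groups, 21 pairs of libraries were compared and none was a repeat (chi-square per degree of freedom 7.99 to 103). The p-values measure the spread between these samples. Mature miRNAs and promoters are from RefSeq (GRCm38.p6).

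The members and gene lists were chosen with earlier results of these data known. Named were all 10 members; genes of their clusters and of the lists of other imprinted genes, IGF genes, fetal liver genes, repressors and imprint keepers that passed, or whose role bears on a member; Nus1; and the 5 genes most like H19. Nctc1, Phlda2, Airn, and the mention of replicates that stand apart were picked after their values were seen. Alternatives were DESeq2 1.42.0 size factors and Wald test, lifting the filter or setting it at a mean of 1 CPM, limma-voom (limma 3.58.1), a replicate block, a transcript length offset, only the 2 groups compared, and leaving out each library.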

Additional observations from a re-analysis of the deposited data

Results flagged for a closer look

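Slc22a18, of the Kcnq1ot1 cluster, was at 40.2 CPM in N-LKO liver replicate 4 under HFD, far from the other 3 livers of its group, which were at 29.8 to 31.1 CPM (gap over range 0.853, past the 95% critical value of Dixon's test). It was the 1 flagged of 28 groups of 4 samples examined, and chance flags about 1 in 20. Its difference between N-LKO and WT liver also differed between diets (interaction log2 difference -0.62, adjusted p = 0.0474, edgeR; 36 named genes were tested for this), with 29.3 to 33.1 CPM in N-LKO and 42.0 to 46.3 CPM in WT livers under WD. That call was lost in 16 of 21 alternatives.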

How the results depend on the processing

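Of the members, 0 were called between N-LKO and WT liver under WD and in the interaction under every alternative run, and 0 under HFD except without WT replicate 1, where Peg3 passed (0 to 1 over single libraries left out). A missing DESeq2 value was counted as not called, so the DESeq2 counts under WD give no result for a gene set to NA. The members were chosen with their tumor values known, so their tumor calls are counted here without support for any statement. Between tumor and N-LKO liver the 1 member called (H19) became 2 with DESeq2 (Meg3 and Rian, with H19 given as NA), 0 with the replicate block, 0 with only these groups fitted, and 0 to 3 without single libraries. Between tumor and WT liver the 4 became 1 with limma-voom, 1 with only these groups fitted, 3 with the block (H19, Meg3 and Rian), 3 with DESeq2 (Meg3, Peg3 and Rian, missing values counted as not called), and 1 to 4 without single libraries. Over all genes, the 655 called under HFD became 1000 with DESeq2, 294 with the length offset and 181 to 596 without single libraries. The 0 for N-LKO against WT under WD became 100 with DESeq2, 6 with only these groups and 0 to 1. The 89 for tumor against N-LKO liver became 58 at a mean of 1 CPM, 1025 with DESeq2, 18 with limma-voom, 38 with the block, 29 with only these groups, and 3 (without N-LKO replicate 2) to 2193 (without tumor replicate 1). The 2668 for tumor against WT became 705 with only these groups and 570 (without WT replicate 2) to 3819. The 256 of the interaction became 981 with DESeq2, 0 with the block, 14 with the length offset and 22 to 330. The cause was not tested, beyond the fewer samples of the reduced fits. No called result turned its direction. Replicate numbers are shared across groups, but same-numbered samples did not deviate together (correlations -0.141 to 0.113, with 5 of 13 samples nearest to their own number). The block rests on these title numbers alone, and beside the counts above it changed no call of a member. The sample descriptions carry other numbers, and a pairing by those was not examined. Levels under 1 CPM rest on under 25 counts, so small changes of Igf2, Meg3, Rian, Mirg and Dlk1 in liver were not detectable at this depth.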
